A study of Mus musculus with 3 samples.

Results

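Kinesins are motor proteins that use ATP to move along microtubules, and the genes studied here are the 35 mouse genes whose name on the array begins with Kif or Kifc followed by a number. They were taken from the gene probes of a whole mouse genome array by that name alone, 35 of 27654 distinct genes, and carried 72 of its 41174 gene probes. The name matched kinesins of every role, so mitotic kinesins (11 genes), transport kinesins (17 genes) and other kinesins (7 genes) are described apart.

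Untreated mouse embryonic stem cells (ES cells), grown with leukemia inhibitory factor in a Knockout DMEM medium with defined serum, were compared with untreated MEF, the usual abbreviation for mouse embryonic fibroblasts, grown in DMEM with heat-inactivated serum. Each of 3 two-colour arrays carried RNA of 1 of 3 ES cell replicates in the Cy3 channel and MEF RNA in the Cy5 channel. The MEF carry a single sample name on the 3 arrays, and 1 line of the design text gives the Cy5 sample another name; the sample labels were followed. The strain, the cell lines, the passage and the use of feeder cells are not given in the sources used here. Whether the ES cell replicates were separate cultures is not stated, and the p-values cover only the spread from array to array, which may be technical. No dyes were swapped, so a dye bias of a single probe cannot be told apart from a difference between the cells.

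The labels matched the marker genes. All 8 ES cell markers (median log2 ratio of ES cells over MEF 3.86) were higher in ES cells and all 8 fibroblast markers (median -5.93) were higher in MEF, but so were all 8 macrophage markers (median -5.07). In the ES cell channel 68.6% to 70.6% of gene spots were well above background, and in the MEF channel 68.2% to 74.0%. Ratios of the arrays correlated across probes at 0.998 or more, which is a correlation across probes and not across independent replicates.

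Cell division needs a set of kinesins that appear mostly in dividing cells: they push spindle poles apart, gather chromosomes at the spindle's middle, trim microtubule ends and build the midzone where the cell is later cut. Transport kinesins carry vesicles, mitochondria, RNA and ciliary cargo, most of them toward the growing ends of microtubules. Several are best known from the long axons of neurons. ES cells are known for short cell cycles with little time spent before replication.

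Of the 35 kinesins, 33 were tested, because a probe had to be well above background in 1 of the channels on all 3 arrays. A gene was called when its adjusted p was under 0.05 (limma, Benjamini-Hochberg over 19486 genes) and its mean log2 ratio was at least 1 in size, a 2-fold difference. By that rule 13 kinesins were higher in ES cells, 4 were lower and 16 were neither, where 42.8% of all tested genes were called, 20.4% higher and 22.4% lower. The adjusted p alone was under 0.05 for 32 of the 33, so the fold minimum set the calls. Without that minimum 45.9% of all tested genes counted as higher and 49.5% as lower. The median log2 ratio of the tested kinesins was 0.56, against -0.05 for all tested genes. SDs over the 3 arrays ran from 0.0029 to 0.088, and all 17 called kinesins were past 2-fold on every array.

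**Figure D1:**
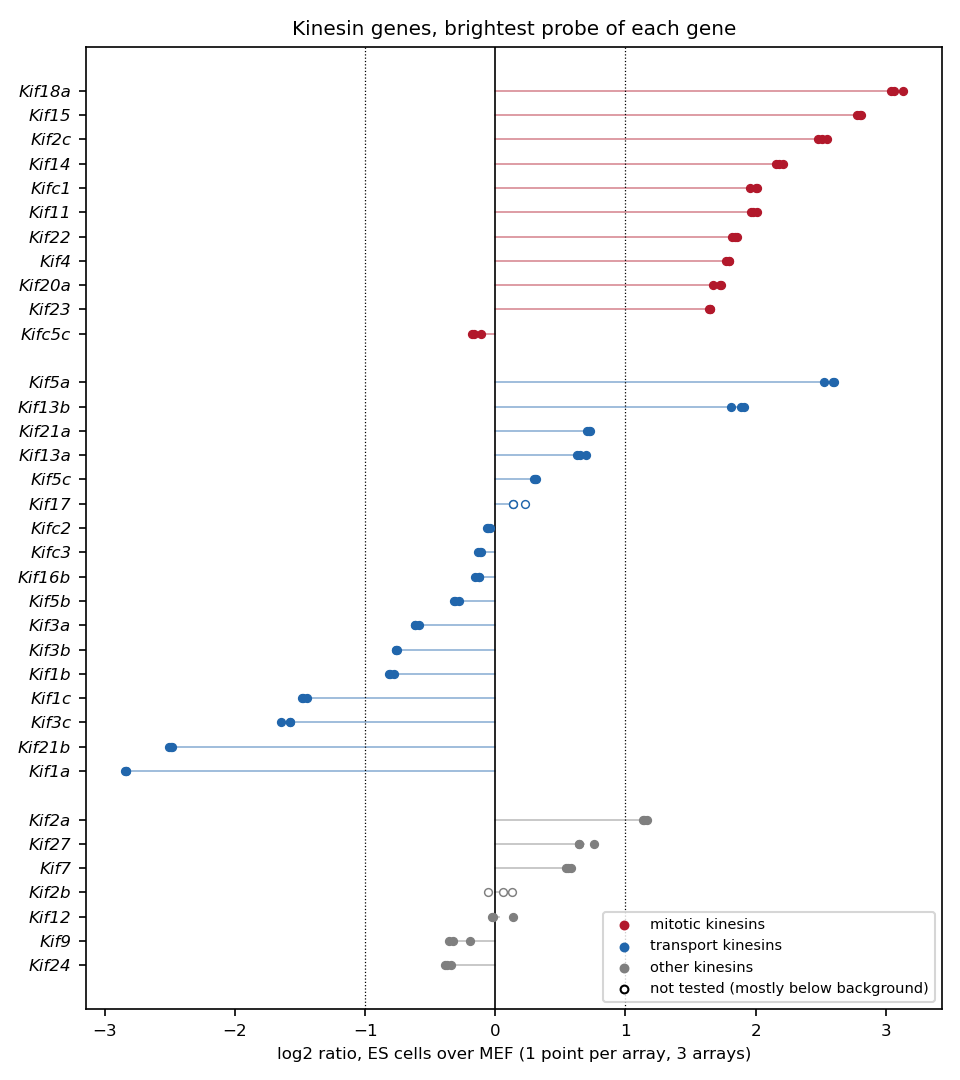
Log2 ratio of ES cells over MEF for each kinesin gene on each of the 3 arrays, from the brightest probe of the gene, with dotted lines at 2-fold. On single arrays the 10 called mitotic kinesins lie between 1.64 and 3.13 on the right, while the transport kinesins run from -2.85 (Kif1a) to 2.60 (Kif5a).

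The mitotic kinesins were higher in ES cells as a group: 10 of the 11 were called higher and 0 lower, with a median log2 ratio of 1.98. The shares called, 90.9% higher and 0% lower, stood against 20.4% and 22.4% of all tested genes. Promoters of mitotic kinesins are shown first, and any part of their letters in the ratios was not tested. Promoter windows of 250 bases before to 50 after the start were taken from RefSeq (assembly GRCm38.p6) and matched 27 of the 35 kinesins by name. Those without a match were the mitotic Kif20a and Kifc5c and the transport Kif5a, Kif5b, Kif13b, Kif21b, Kifc2 and Kifc3. The motif counts below thus hold no transport kinesin called higher in ES cells, as Kif5a and Kif13b are missing. The cell cycle genes homology region is a promoter element known from genes expressed late in the cell cycle, and its letters TTTGAA were searched on both strands. CCAAT, the box that the factor NF-Y binds, was searched the same way. These motifs do not overlap each other's letters. The stretches below run from 80 bases before the start to 30 after it, on the gene's strand, with matches to both motifs in capitals (TTTGAA reads as TTCAAA and CCAAT as ATTGG on the other strand). Kif18a is shown as the called mitotic kinesin with no match. The Kifc1 promoter was matched by name and lies on the minus strand, while both Kifc1 probes lie on the plus strand of chr17. It may thus belong to another copy than the one measured, and the counts below include it.
Kif11 chr19:37376302-37376411 (plus strand): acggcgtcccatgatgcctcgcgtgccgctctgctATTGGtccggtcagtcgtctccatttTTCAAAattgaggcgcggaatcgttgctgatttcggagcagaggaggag
Kif15 chr9:122951001-122951110 (plus strand): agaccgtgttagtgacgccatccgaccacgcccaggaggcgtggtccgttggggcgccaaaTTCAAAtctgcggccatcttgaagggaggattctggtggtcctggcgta
Kif22 chr7:127042391-127042500 (minus strand): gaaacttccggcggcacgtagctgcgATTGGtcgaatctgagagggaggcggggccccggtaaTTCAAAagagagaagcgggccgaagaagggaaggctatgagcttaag
Kif23 chr9:61946770-61946879 (minus strand): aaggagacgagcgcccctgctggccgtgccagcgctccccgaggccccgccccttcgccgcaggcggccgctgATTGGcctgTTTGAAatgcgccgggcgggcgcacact
Kif4 chrX:100625985-100626094 (plus strand): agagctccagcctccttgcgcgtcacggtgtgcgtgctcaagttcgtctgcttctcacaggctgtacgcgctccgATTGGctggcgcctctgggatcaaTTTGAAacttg
Kifc1 chr17:33890604-33890713 (minus strand): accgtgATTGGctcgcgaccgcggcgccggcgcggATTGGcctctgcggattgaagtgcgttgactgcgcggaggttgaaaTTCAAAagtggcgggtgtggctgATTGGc
Kif18a chr2:109280658-109280767 (plus strand): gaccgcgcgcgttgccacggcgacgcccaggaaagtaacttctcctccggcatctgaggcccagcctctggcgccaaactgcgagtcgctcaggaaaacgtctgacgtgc
In 8 of the 9 mitotic kinesins with a promoter the window held TTTGAA, Kif18a being the exception, against 1 of 11 transport kinesins (Kif1a, at the second of its listed starts), 1 of 7 other kinesins (Kif27) and 17.9% of 32851 promoters in the RefSeq table. The match began at -19 in Kif11 and Kif15, at -17 in Kif22, at 2 in Kifc1, at 3 in Kif23 and at 20 in Kif4, counted from the start. Counting only the stretch from 30 bases before to 25 after the start, which was set after these positions were seen, 6 of 9 mitotic kinesins, 0 of 11 transport kinesins, 0 of 7 other kinesins and 2.9% of all promoters held it. Kif2c (-103) and Kif14 (-228) held it farther upstream. CCAAT was in the window of 6 of 9 mitotic, 3 of 11 transport and 3 of 7 other kinesins, and in 37.4% of all promoters. A match describes the letters of the reference genome, and no binding was measured here.

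**Figure D2:**
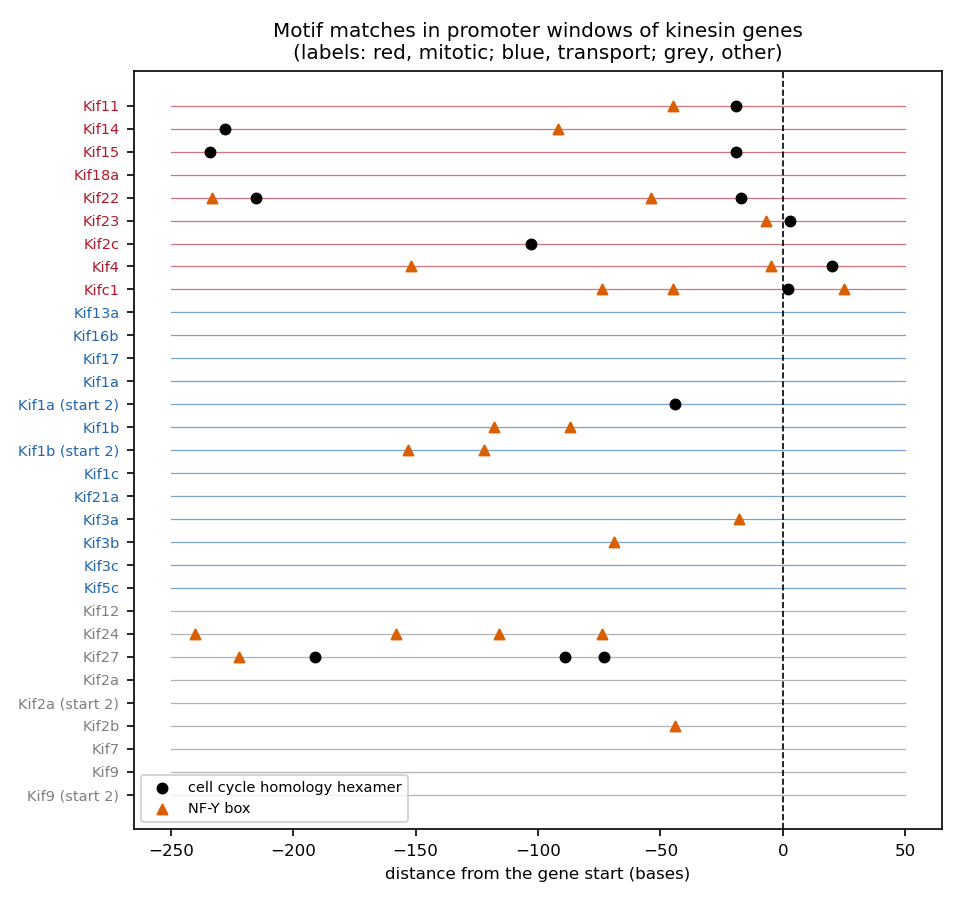
Matches to TTTGAA (cell cycle homology hexamer, circles) and CCAAT (NF-Y box, triangles) on either strand of the promoter windows of 27 kinesins, as distance in bases from the gene start, with 31 windows in all since some genes have a second listed start. In 6 mitotic kinesins a circle lies within 30 bases before to 25 after the start, and none of the transport and other kinesins drawn has one there.

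Kif18a, a kinesin-8 motor that damps chromosome movements at the metaphase plate, had the largest ratio of the 33 tested kinesins. Its log2 ratio was 3.04, 3.13 and 3.06 on arrays 1, 2 and 3, 8.44-fold higher in ES cells (3.08 ± 0.050, SD, n = 3; limma adjusted p = 2.84e-07). On its probe (mm7 chr2:109192046-109192105, plus strand) the normalized log2 intensity was 13.16 to 13.24 in ES cells and 10.04 to 10.17 in MEF, so the channels did not overlap. A second, dim Kif18a probe did not pass the filter and had a mean log2 ratio of 0.91. It was well above background on 1 array in ES cells and on 0 in MEF, so the size of the Kif18a difference rests on 1 probe.

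Kif15, a kinesin-12 that helps to keep spindle poles apart, followed with log2 ratios of 2.78, 2.81 and 2.80, a 6.95-fold difference (2.80 ± 0.018, SD, n = 3; limma adjusted p = 1.74e-07). On its probe (mm7 chr9:122723578-122723637, plus strand) the log2 intensity was 11.04 to 11.09 in ES cells and 8.24 to 8.31 in MEF. Kif11, the kinesin-5 known as Eg5 that slides antiparallel microtubules to separate the poles, stood lower, at 1.97, 1.98 and 2.01 (3.95-fold; 1.98 ± 0.022, SD, n = 3; limma adjusted p = 2.65e-07). Both pole-separating motors were thus well apart between the channels on every array, and Kif15 had the larger ratio of the pair.

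Kif2c, the kinesin-13 known as MCAK that takes microtubule ends apart at centromeres, had log2 ratios of 2.48, 2.55 and 2.51 (5.71-fold; 2.51 ± 0.036, SD, n = 3; limma adjusted p = 2.74e-07), and its log2 intensity of 12.80 to 12.91 in ES cells stood clear of 10.29 to 10.40 in MEF. Kif14, a kinesin-3 of the cytokinetic midzone, had 2.21, 2.18 and 2.16 (4.54-fold; 2.18 ± 0.025, SD, n = 3; limma adjusted p = 2.49e-07), and a dimmer probe, with MEF at background, was at least 2.04-fold higher in ES cells. A kinesin-14 that bundles microtubules toward the poles, Kifc1, had 1.96, 2.01 and 2.00 (3.97-fold; 1.99 ± 0.031, SD, n = 3; limma adjusted p = 3.55e-07). The RefSeq table lists the accession of the Kifc1 probes under Kifc5b, a near-identical copy, so its signal cannot be split between the copies.

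The lowest of the called mitotic kinesins still differed by more than 3-fold. Kif22, a kinesin-10 that binds chromosome arms, had log2 ratios of 1.81, 1.86 and 1.84 (1.84 ± 0.021, SD, n = 3). Kif4, the chromokinesin of the kinesin-4 family that limits midzone length, had 1.79, 1.79 and 1.78 (1.79 ± 0.0096, SD, n = 3). The kinesin-6 motors of the midzone closed the group: Kif20a at 1.68, 1.73 and 1.73 (1.71 ± 0.031, SD, n = 3) and Kif23 at 1.65, 1.65 and 1.64 (1.65 ± 0.0048, SD, n = 3). Their limma adjusted p ran from 2.32e-07 (Kif4) to 4.88e-07 (Kif20a). Kif20a had a spread of its own in brightness, since its log2 intensity was 15.92 in ES cells on array 1 against 16.18 and 16.24 on the others, and the MEF channel moved with it (14.24, 14.44 and 14.51).

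Kifc5c was the exception among the genes listed as mitotic. Its log2 ratio was -0.11, -0.18 and -0.16 (-0.15 ± 0.035, SD, n = 3; limma adjusted p = 0.00168), under the fold minimum. RefSeq now lists it as a pseudogene, and related copies may bind its probe, so the value is uncertain.

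Genes that work with mitotic kinesins stood beside them. Of 24 spindle and midzone partners, 23 were called higher in ES cells and 0 lower, with a median log2 ratio of 1.87. The shares called, 95.8% higher and 0% lower, stood against 20.4% and 22.4% of all tested genes. The highest partners were Cep55 (3.57 ± 0.0050, SD, n = 3), which recruits the machinery of the final cut, and Ccnb1 (3.38 ± 0.023, SD, n = 3), the mitotic cyclin B1. The lowest called were Plk1 (1.03 ± 0.00076, SD, n = 3), a mitotic kinase that docks on Kif20a, and Racgap1 (1.06 ± 0.0028, SD, n = 3), the partner of Kif23 in centralspindlin. Cenpe, a kinetochore kinesin whose name falls outside the Kif names, is in that list at 1.73 ± 0.017 (SD, n = 3). Numa1, which gathers microtubules at the poles, was not called (0.40 ± 0.021, SD, n = 3).

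General proliferation genes moved with them: 5 of 6 were called higher in ES cells (83.3%, beside 20.4% of all tested genes). None were called lower (0%, beside 22.4%), and their median log2 ratio was 1.68. Their summed linear intensity was 421601 to 430125 in ES cells and 130036 to 131026 in MEF, with all 6 above background in both channels. The part of the share of dividing cells in the mitotic kinesin ratios was not tested. In bulk RNA, fewer cells of a type and less RNA per cell cannot be told apart.

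**Figure D3:**
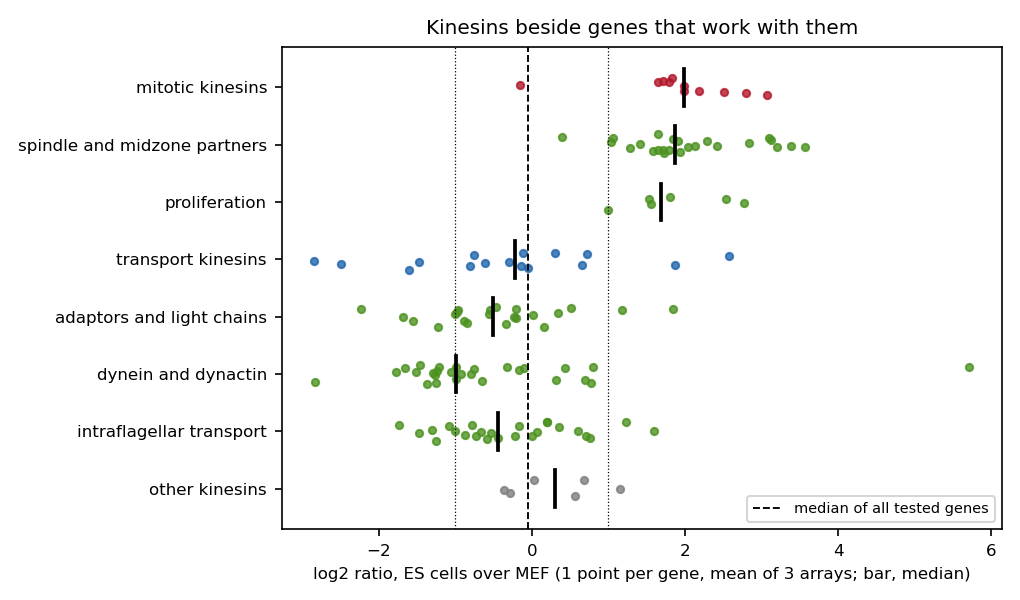
Mean log2 ratio over 3 arrays for each tested gene of the kinesin groups, the 4 lists of genes that work with them and the proliferation markers, with each group's median as a bar and the median of all tested genes (-0.05) dashed. Mitotic kinesins (median 1.98) and their spindle and midzone partners (median 1.87) lie to the right of the other groups, whose medians lie between -0.99 and 0.30 apart from the proliferation markers (1.68).

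The transport kinesins went both ways. Of 16 tested, 2 were called higher in ES cells (Kif5a and Kif13b), 4 were called lower (Kif1a, Kif21b, Kif3c and Kif1c) and 10 were neither, with a median log2 ratio of -0.22. The shares called, 12.5% higher and 25% lower, stood against 20.4% and 22.4% of all tested genes. Without the fold minimum all 16 had a limma adjusted p under 0.05, 5 higher and 11 lower. Most of all tested genes passed that looser rule too, 45.9% higher and 49.5% lower.

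Kinesin-1 is the conventional motor of vesicles and mitochondria, and its heavy chains differed among themselves. Kif5a, best known from neurons, had log2 ratios of 2.52, 2.60 and 2.60, 5.96-fold higher in ES cells (2.57 ± 0.044, SD, n = 3; limma adjusted p = 3.35e-07). On its probe (mm7 chr10:126726451-126726510, minus strand) the log2 intensity was 12.54 to 12.55 in ES cells and 9.94 to 10.03 in MEF. A second, dim Kif5a probe had a MEF signal well above background on 0 arrays and was at least 1.77-fold higher in ES cells, taking for MEF the lowest signal that is well above background, so the size of the Kif5a difference rests on 1 probe.

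Kif5b, the heavy chain found in most cell types, was close to even: -0.31, -0.28 and -0.31 (-0.30 ± 0.018, SD, n = 3; limma adjusted p = 4.84e-05), under the fold minimum. Its log2 intensity was 16.04 to 16.06 in ES cells and 16.34 to 16.36 in MEF, a bright signal in both. Kif5c, the remaining heavy chain, had 0.31, 0.31 and 0.30 (0.31 ± 0.0075, SD, n = 3) on the brightest probe and 0.78 on the other.

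Kinesin-2 motors drive transport along cilia and carry other cargo in the cytoplasm, and the 3 tested were all below 0. Kif3c, which pairs with Kif3a, had log2 ratios of -1.58, -1.58 and -1.65, 3.03-fold higher in MEF (-1.60 ± 0.040, SD, n = 3; limma adjusted p = 8.43e-07). Its log2 intensity was 10.12 to 10.22 in ES cells and 11.76 to 11.80 in MEF. The second Kif3c probe was dim, with ES cells well above background on 0 arrays, and gives only a bound of at least 1.13-fold higher in MEF, so the size of the Kif3c difference rests on 1 probe. Kif3a (-0.61 ± 0.016, SD, n = 3) and Kif3b (-0.76 ± 0.0029, SD, n = 3), the subunits of the ciliary motor, were not called. Kif17 was not tested, as it was well above background on 0 arrays in ES cells and on 1 array in MEF.

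Kinesin-3 held called genes of both signs, among them the mitotic Kif14 described above. Kif1a, the motor of synaptic vesicle precursors, was the lowest of the 33 tested kinesins, at -2.84, -2.85 and -2.84, 7.17-fold higher in MEF (-2.84 ± 0.0045, SD, n = 3; limma adjusted p = 1.62e-07). On its probe (mm7 chr1:92923344-92923403, minus strand) the log2 intensity was 11.50 to 11.56 in ES cells and 14.34 to 14.40 in MEF, and a second probe gave -1.65, -1.69 and -1.75. All arrays and both probes thus put Kif1a past 2-fold in the MEF direction.

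Kif1c, a kinesin-3 of podosomes and vesicles, had log2 ratios of -1.49, -1.45 and -1.47, 2.77-fold higher in MEF (-1.47 ± 0.019, SD, n = 3; limma adjusted p = 4.21e-07). Its log2 intensity was 11.33 to 11.40 in ES cells and 12.80 to 12.85 in MEF, and its other probes gave -1.57 and -1.04. Kif1b, which carries mitochondria and synaptic vesicle precursors in different forms, had -0.82, -0.78 and -0.81 on the brightest probe (-0.80 ± 0.020, SD, n = 3), not called. Its other 3 probes gave -1.13, -1.13 and -0.44, on both sides of the fold minimum. Kif16b, an endosome motor, was near even at -0.12, -0.12 and -0.16 (-0.14 ± 0.020, SD, n = 3), and its sign turned to 0.12 with median centring in place of loess.

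Kif13b and Kif13a were the kinesin-3 transport motors above 0. Kif13b, known as GAKIN, had 1.81, 1.91 and 1.88, 3.65-fold higher in ES cells (1.87 ± 0.051, SD, n = 3; limma adjusted p = 9.19e-07). Its log2 intensity was 9.82 to 9.87 in ES cells and 7.91 to 8.05 in MEF, and its second probe was below background in both channels. Kif13a, a motor of endosomes, had 0.65, 0.70 and 0.63 (0.66 ± 0.034, SD, n = 3), not called, with other probes at 0.81 and 0.26.

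Kinesin-4 was the other family with called genes of both signs: Kif4 higher in ES cells, described above, and Kif21b lower. Kif21b, a motor that restrains microtubule growth, had log2 ratios of -2.51, -2.49 and -2.48, 5.64-fold higher in MEF (-2.50 ± 0.013, SD, n = 3; limma adjusted p = 1.76e-07). Its log2 intensity was 12.13 to 12.20 in ES cells and 14.64 to 14.69 in MEF. Kif21a, its paralog, went the other way without a call on its brightest probe, at 0.72, 0.73 and 0.70 (0.72 ± 0.014, SD, n = 3). The other Kif21a probe was near even, at 0.14, 0.22 and -0.0012 (mean 0.12). Kif7, the kinesin-4 of hedgehog signalling at the cilium tip, had 0.58, 0.56 and 0.54 (0.56 ± 0.020, SD, n = 3). Kif27, a relative of Kif7, had 0.65, 0.76 and 0.64 (0.68 ± 0.065, SD, n = 3), but its MEF signal was well above background on 1 array. In the scanner's processed signals and in the authors' deposited table, Kif27 had a ratio of 1.56 and passed the call.

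The kinesin-14 transport motors were near even. Kifc3, a motor of the cell cortex and junctions, had -0.11, -0.12 and -0.13 (-0.12 ± 0.0090, SD, n = 3), and Kifc2, best known from neurons, had -0.05, -0.04 and -0.07 (-0.05 ± 0.012, SD, n = 3). On these probes both turned to the other sign (0.03 to 0.16) under other scalings, so no direction is given for them. A second, dimmer Kifc3 probe gave -0.35, -0.29 and -0.34 (mean -0.33), under the fold minimum.

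**Figure D4:**
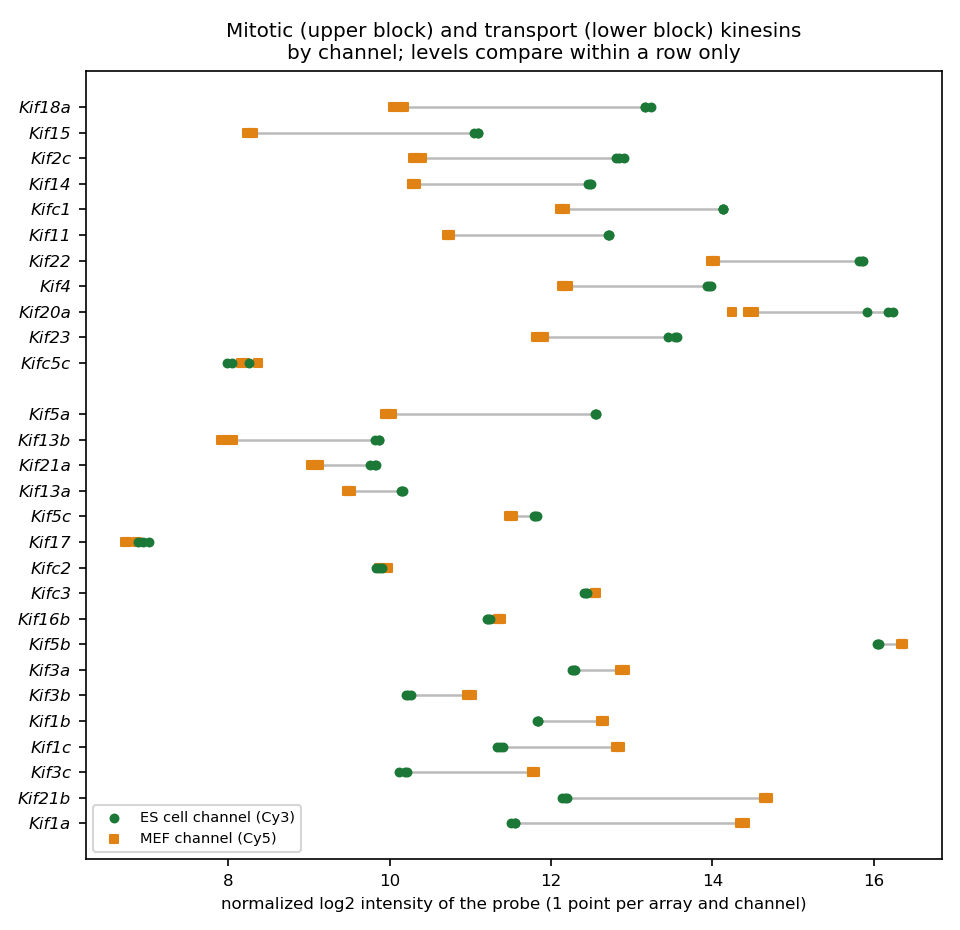
Normalized log2 intensity of the brightest probe of each mitotic (upper) and transport (lower) kinesin, with 1 green circle per array for the ES cell channel and 1 orange square per array for the MEF channel. Within each row of the called kinesins the channels stand apart on all 3 arrays (for Kif1a 11.50 to 11.56 against 14.34 to 14.40), and rows cannot be set against each other because probes differ in brightness.

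Markers of neurons and glia did not move one way. Of 9 tested, 3 were called higher in ES cells (Nefl, Stmn2 and Mapt) and 3 lower (Gfap, Ncam1 and Map2). The shares called, 33.3% higher and 33.3% lower, stood against 20.4% and 22.4% of all tested genes. The summed linear intensity of the 9 markers was 37650.3 to 37788.9 in ES cells and 96651.7 to 98973.3 in MEF. Gfap was not well above background in ES cells, nor Snap25 in MEF. The macrophage markers summed to 10208 to 10668.5 in ES cells and 483138 to 516044 in MEF, with none below background in either. The part of such cells in the ratios of Kif1a, Kif21b, Kif3c and Kif1c was not tested.

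The ratios of the other kinesins had the narrowest range of the kinesin groups, from -0.37 to 1.15. Of 6 tested, 16.7% were called higher and 0% lower, beside 20.4% and 22.4% of all tested genes. Kif2a, a kinesin-13 that trims microtubule ends in interphase and at spindle poles, was the 1 of 6 tested that was called, with 1.14, 1.17 and 1.13, 2.21-fold higher in ES cells (1.15 ± 0.017, SD, n = 3; limma adjusted p = 6.97e-07). Its other probes gave 1.06 and 0.42, and the mean over the 3 (0.87) was under the fold minimum. Kif24, a kinesin-13 that restrains cilium formation, had -0.39, -0.34 and -0.37 (-0.37 ± 0.026, SD, n = 3). Kif9, of the kinesin-9 family of motile cilia, had -0.19, -0.36 and -0.32 (-0.29 ± 0.087, SD, n = 3). Kif12, a kinesin-12, had -0.02, -0.01 and 0.13 (0.03 ± 0.088, SD, n = 3; limma adjusted p = 0.456) and was the 1 tested kinesin whose arrays disagreed in sign. Kif2b, a kinesin-13 known from testis, was below background in both channels on all arrays and was not tested.

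Probes of a gene often gave ratios of different size. Of 22 kinesins with more than 1 probe above background, 20 had all probes on the same side of 0 and 2 did not, Kif21b and Kif24. The median gap between the highest and lowest probe of a gene was 0.55 on the log2 scale. It ran from 0.023 (Kif20a, whose probes share 33 bases) to 2.86 (Kif21b), passing 1 in 6 genes. The median SD over arrays was 0.020 for the brightest probes of the 33 tested kinesins, an unlike measure. Dimmer probes could spread more over arrays (SD 0.45 for a Kif1c probe). All 7 called mitotic kinesins with several such probes had every probe past 2-fold in the same direction, against 2 of 5 called transport kinesins. The probe pairs of Kif4 (20 bases) and Kif20a overlap in sequence and are not independent, and the second probes of Kif14, Kif5a and Kif3c give only a bound, as 1 channel was at background. No pair of probes of different kinesins shared a run longer than 11 bases.

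The probes of Kif21b and Kif24 are shown because the choice among them decided the sign. Each line gives the first 30 of 60 bases, in lower case throughout, as no part is marked.
Kif21b chr1:136064121-136064180 (plus strand): tatttaagcctcatgctgtacatttctgtt
Kif21b chr1:136063364-136063423 (plus strand): gagaagatgctgtcttgctgaaggattctt
Kif21b chr1:136059185-136059713 (plus strand): agcaagcacatcttcacggcctccagtgac
Kif24 chr4:41593058-41593117 (minus strand): caaaaatccctctgcccctgggataacttt
Kif24 chr4:41530350-41530409 (minus strand): caactacagggccacctgtaacaaagtact
The Kif21b probes at mm7 chr1:136064121-136064180 and chr1:136063364-136063423 gave -2.50 and -2.16, while the third, at chr1:136059185-136059713 gave 0.29, 0.39 and 0.41 (mean 0.36). Averaged over the 3, Kif21b stood at -1.43 and kept its call. The brighter Kif24 probe (chr4:41593058-41593117) gave -0.37, and the probe 62708 bases away (chr4:41530350-41530409) gave 1.36, 1.57 and 1.44 (mean 1.46). The mean over both Kif24 probes was 0.55, of the other sign. Which exon or untranslated part each probe matches was not analysed here, since no annotation of that build was used.

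**Figure D5:**
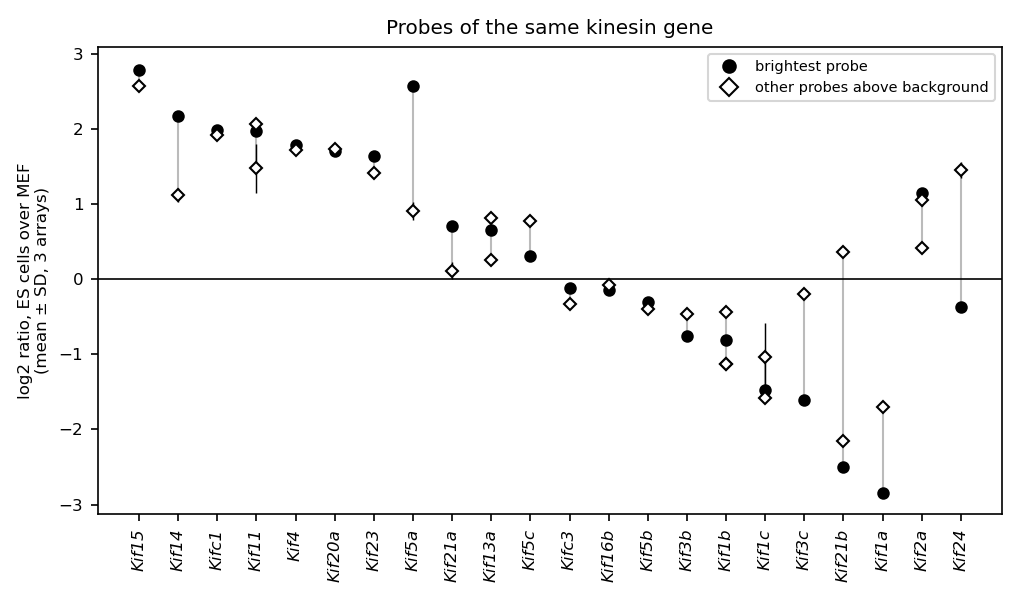
Mean log2 ratio over 3 arrays (lines, SD) of every probe above background for the 22 kinesins with more than 1 such probe, the brightest as a filled circle and the others as open diamonds. Probes of the mitotic kinesins on the left lie on 1 side of 0, while those of Kif21b and Kif24 lie on both sides.

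Of 22 adaptors and light chains, which link transport kinesins to cargo, 2 were called higher (9.09%) and 5 lower (22.7%), where all tested genes had 20.4% and 22.4%. The median log2 ratio of the list was -0.51, and most of its genes were called in neither direction. The called ones above 0 were Mapk8ip2 (1.85 ± 0.066, SD, n = 3), a JNK scaffold that binds kinesin light chains, and Grip1 (1.17 ± 0.047, SD, n = 3), an adaptor of Kif5 motors in dendrites. The lowest were Kidins220 (-2.23 ± 0.011, SD, n = 3), a membrane protein carried by kinesin-1, and Plekhm2 (-1.68 ± 0.041, SD, n = 3), known as SKIP, which ties lysosomes to kinesin-1.

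Dynein is the motor that runs toward the opposite microtubule end, and dynactin is its activator. Of 27 tested genes, 12 were called lower in ES cells (44.4%, beside 22.4% of all tested genes). Only 1 was called higher (3.7%, beside 20.4%), and the median was -0.99. With median centring in place of loess the counts were 7 lower and 3 higher of 27, beside 19.3% lower and 24.8% higher among all tested genes, so the gap to all genes was smaller under that scaling. The lowest were Dync1i1 (-2.83 ± 0.069, SD, n = 3), a dynein intermediate chain, and Bicd2 (-1.78 ± 0.0045, SD, n = 3), a cargo adaptor. The 1 called higher was Hook1, an adaptor of endosomes, at 5.71 ± 0.013 (SD, n = 3), or 52.5-fold.

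Of 25 genes of intraflagellar transport, the ciliary traffic that kinesin-2 drives, 2 were called higher and 5 lower, with a median of -0.44. Wdr35 (1.60 ± 0.0067, SD, n = 3), a subunit of the returning complex, and Arl6 (1.23 ± 0.028, SD, n = 3), a small GTPase of the ciliary base, were called higher. Ttc30b (-1.74 ± 0.028, SD, n = 3) and Ift43 (-1.48 ± 0.0057, SD, n = 3) were the lowest. The share called lower in this list (20.0%) lay near the 22.4% of all tested genes, while the share called higher (8%) lay below their 20.4%.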

How the data were processed

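Images were read by the authors with Agilent Feature Extraction 9.5.3.1, per the file headers, which place probes on mouse build mm7. The deposited intensity values are mean spot brightness and median local background, without subtraction. The software's log10 ratio, as deposited, divides red by green processed intensity, so MEF by ES cells. A log2 table for the whole series was deposited too, and its columns correlate with the sign-turned log ratio at 0.998, 1.00 and 0.999 across probes and have medians of 0.213, 0.0859 and -0.143, so it is log2 ES cells over MEF and not centred; what was done to probes that differ from the log ratio is unknown. All 3 arrays lay on 1 slide.

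Mean signals were corrected with normexp (offset 50, which shrinks ratios of dim probes) and normalized by loess in limma 3.58.1 under R 4.3.3, with control spots given weight 0 and spots marked as outliers (117 to 144 gene spots per array) left out. Median signals were 398 to 421 in ES cells and 381 to 391 in MEF, over backgrounds of 45 to 56 and 38 to 41.5. No kinesin probe used was saturated. The number of arrays limits the precision.

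Probes well above background in 1 channel on all 3 arrays were kept (29500 probes), and the brightest kept probe stood for its gene. Names came from RefSeq (GRCm38.p6) by accession (22960 probes), symbol (6664), synonym (3108) or gene number (294), and 8148 probes kept the name in the file. The mean ratio was tested against 0 with lmFit and eBayes. On simulated data for this comparison (29498 probes), 50 of 50 probes changed by each of -3, -1.5, 1.5 and 3 (log2) were called with the right sign, and 0 of 29298 unchanged probes were called. The simulated arrays had small noise, no dye bias and no spread between cultures. They check the steps and the sign only, not the error rate on the real arrays. Intensities of the channels were taken after loess and Aquantile scaling, and bounds on dim probes use the lowest signal well above background on each array.

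The kinesins, the lists and the alternatives were chosen with earlier results of these data known. Values per array are given for the 5 highest and 5 lowest kinesins of each role and for families with called genes of opposite sign. From each list the 2 highest and 2 lowest called genes are named. Genes outside these are named where a result turns on them. Alternatives were other background correction, scaling, signal columns, probe filters, probe choice, call rules and leaving out each array.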

Additional observations from a re-analysis of the deposited data

How the results depend on the processing

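Over 15 alternatives, 466 of 494 kinesin ratios kept their direction and their side of the call, and 190 of 210 counts stayed within 1.5 times. Not all of these were separate checks. Aquantile scaling and the call rules reuse the main ratios. The probe filters and the kept outlier spots left the ratios of the kinesins they kept unchanged. The authors' table nearly repeats the processed signals (Kif11 at 2.17 in both). Median centring moved the median of all tested genes by 0.16 (from -0.05 to 0.11) and turned Kif16b (0.12), Kifc2 (0.16) and Kifc3 (0.15). The scanner's processed signals and the authors' deposited table turned Kifc2 (0.063 in both) and Kifc3 (0.030 in both). The mean of all probes turned Kif24 (0.55), and leaving out 1 array put Kif12 between -0.019 (without replicate 3) and 0.060 (without replicate 1); none of these 5 genes is called. The mean of all probes ended the calls of Kif2a (0.87) and Kif3c (-0.89, which averages in a probe with ES cells at background, so it is no measured size). Leaving out each array moved no count past 1.5 times. Removing the fold minimum called 45.9% of all tested genes higher and 49.5% lower. Without the fold minimum the counts were 1 mitotic lower, 5 transport higher and 11 lower, 3 other higher and 2 lower, 5 adaptors higher and 16 lower, 6 dynein genes higher and 21 lower, and 9 intraflagellar transport genes higher and 15 lower. The count of other kinesins higher was 2 with processed signals and with the authors' table and 0 with the mean of probes. Dynein genes higher were 2 with processed signals and with the authors' table. Median centring gave 3 adaptors lower, 3 dynein genes higher and 7 lower, and 3 intraflagellar transport genes lower. A filter on both channels leaves out Kif27. Apart from the fold minimum, whose removal makes the rule looser, the cause of these shifts was not tested. Kif17 and Kif2b, too dim to test, mark where signal over background limits the ratios. No paired analysis was possible because all 3 samples are of 1 group and the test is of ratios within each array.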

Other observations

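Some kinesins carry another name on the array and so fall outside the 35 genes. Kif20b, the kinesin-6 of the midbody, is there as Mphosph1, with log2 ratios of ES cells over MEF of 3.20, 3.21 and 3.21 (3.21 ± 0.0063, SD, n = 3; limma adjusted p = 1.62e-07), above Kif18a. Its 3 probes ran from 2.92 to 3.21. Kif18b, a kinesin-8 of astral microtubules, listed as a Riken clone, had 2.18, 2.23 and 2.24 (2.22 ± 0.034, SD, n = 3; limma adjusted p = 3.19e-07). Both were thus past 2-fold toward ES cells on every array.

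The genes Kif26a and Kif26b, which lack the usual motor activity, were called with opposite signs. Kif26a had 2.17, 2.20 and 2.22 (2.20 ± 0.027, SD, n = 3; limma adjusted p = 2.64e-07), but its other probe gave -0.22. Kif26b had -4.14, -4.16 and -4.04 (-4.11 ± 0.068, SD, n = 3; limma adjusted p = 2.7e-07), lower than Kif1a, with its other probe at -0.51. These genes were picked after their values were seen.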
